A study of Mus musculus with 161 samples.

Results

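Common monocyte progenitors (cMoP) are bone marrow cells whose label gives the cell type BM_cMoP, and 66 of the 161 single-cell libraries in the series carry it. The remaining libraries are 57 bone marrow monocytes and 38 blood monocytes with high Ly6C. The cMoP came from untreated C57BL/6 mice and were sorted as Lin- CD117+ CD115+ CD135- Ly6C+ cells after bead enrichment of progenitors, then lysed on a Fluidigm C1 circuit, reverse transcribed with oligo(dT) primers and turned into Nextera XT libraries. No label names an animal or says how many were pooled, so the cMoP form 1 sample of cells, cells were not treated as replicates, and no test was made.

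The cMoP is a dividing progenitor that gives rise to monocytes and has lost the capacity to form dendritic cells. It lies close to the granulocyte branch, and early cells of both branches fill primary (azurophilic) granules with myeloperoxidase and serine proteases. Monocyte identity in the marrow depends on the transcription factors Irf8 and Klf4, while members of the C/EBP family and Gfi1 act in the granulocyte branch.

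The values are TPM, transcript abundance per length scaled to a fixed total in each cell, and a gene is called on in a library above 1 TPM. Read depth cannot be had from TPM and is unknown here, and the number of genes on serves as the measure of library complexity. Of the 66 libraries, 11 had over 15% of TPM in rows starting mt-, from 16.6% to 47.7%, and 6 had no flow cell in the label. These sets shared no library. The other 49, called the ordinary libraries here, had 0.777% to 10.4% in mt- rows and 4478 to 7552 genes on, with a median of 6690. The 11 libraries of high mitochondrial share had 4799 to 7462 genes on and 1.17% to 9.41% of TPM in ribosomal protein rows, against 7.82% to 12.1% in the ordinary libraries. The 6 libraries without a flow cell had 8720 to 9971 genes on and 4.47% to 11.1% in mt- rows, so their numbers of genes lay above every other cMoP library. The 60 libraries with a flow cell came from 1 flow cell and 1 lane. Co-variation between genes is given over the 49 ordinary libraries, with the value over all 66 beside part of the pairs. Of 103 named pairs, 31 moved by more than 0.1474 over all 66, and none changed sign. The pairs were chosen as the highest or lowest over the 49, which are part of the 66. Their kept signs are therefore no independent check.

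**Figure D1:**
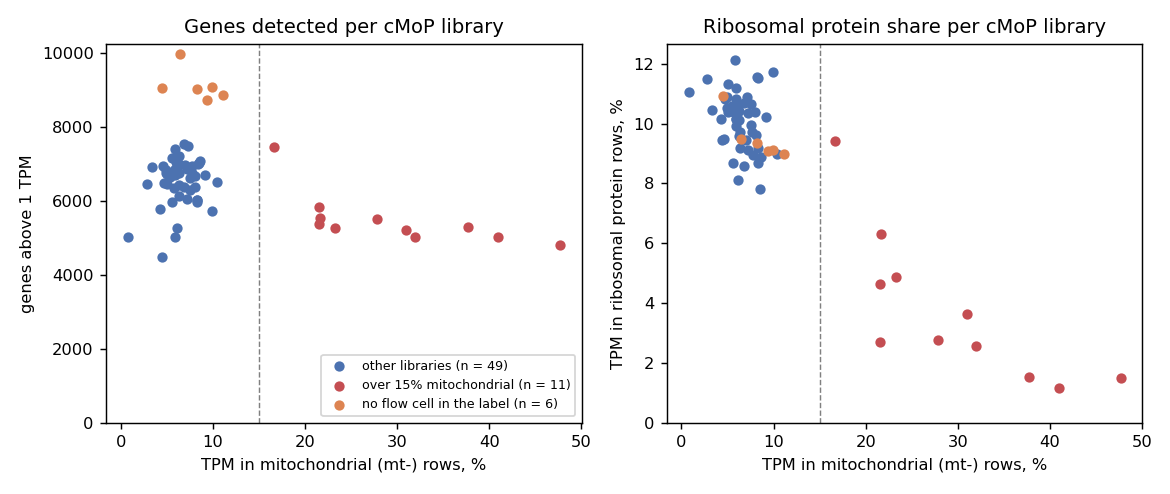
Each point is 1 cMoP library, with its percentage of TPM in mt- rows on the x axis and its number of genes above 1 TPM (left) or its percentage of TPM in ribosomal protein rows (right) on the y axis. The dashed line marks 15%; the 11 libraries to its right had at most 9.41% in ribosomal rows, and the 6 libraries without a flow cell had the most genes.

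By mt- rows alone, the lowest share above 15% was 16.6% and the highest below it 11.1%, in a library without a flow cell, or 10.4% among the ordinary libraries. The predicted rows Gm28437, Gm28661 and Gm29216, annotated as unprocessed pseudogenes on chromosome 1 between 24613189 and 24616197 (GRCm38), followed the mt- rows over the 66 libraries at a Spearman rho of 0.80. They held a median of 1.79% of TPM in the ordinary libraries, 9.73% in those of high mitochondrial share and 8.31% in those without a flow cell. Counting them as mitochondrial would put 15 libraries over 15%. The 4 added are all libraries without a flow cell, at 15.3% to 22.6%, so these sets would then overlap, and the highest ordinary library would stand at 14.3%.

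The label was checked against its markers. Mpo, the myeloperoxidase of primary granules, was on in 66 of 66 libraries (100%, exact 95% interval 94.6 to 100%), as were Elane, the neutrophil elastase gene, Ly6c2, the Ly6C antigen of the sort, and the membrane protein gene Ms4a3. Kit, which encodes CD117, was on in 39 of 66 (59.1%, 46.3 to 71.0%), and Csf1r, the CD115 receptor for M-CSF, in 56 of 66 (84.8%, 73.9 to 92.5%). The intervals cover the counting of cells only. Both receptors belong to the sort gate, so their 0 values are cells in which the protein was stained and the transcript was not listed. Flt3, which encodes CD135 and was gated against, was on in 20 of 66 (30.3%) and above 10 TPM in 5. Among markers of other cells, 6 NK cell genes, 5 eosinophil genes and 7 macrophage genes each had no member on in 10% of the ordinary libraries. Of all 43280 rows, 70.9% were on in under 10% of these libraries. The conventional dendritic cell list summed to a median of 11.7 TPM (0 to 462 TPM) there. The plasmacytoid dendritic cell list had a median of 44.75 TPM (0 to 201 TPM) and the B cell list 39.6 TPM (0 to 491 TPM). The erythroid list had 1.72 TPM (0 to 346 TPM) and the basophil and mast cell list 0.39 TPM (0 to 599 TPM). Cd79b, a chain of the B cell receptor complex, had the highest mean of the B cell list, with 35 of 49 libraries on and a median of 32.2 TPM.

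The most abundant transcripts combined granule genes with the machinery of growth. Leaving out mitochondrial, ribosomal and predicted rows, Mpo led with a mean of 10734 TPM over the 66 libraries, and it ran from 917 to 32081 TPM with a median of 9536 TPM. The translation elongation factor Eef1a1 followed at 8572 TPM, then the cytoskeletal actin gene Actb at 7832 TPM, the nuclear RNA Malat1 at 6956 TPM and the chaperone gene Hspa8 at 6718 TPM. Ly6c2 stood at 5351 TPM and Elane at 4602 TPM. The next were the peroxidase gene Gpx1 (4356 TPM), prothymosin Ptma (3827 TPM), cyclophilin A or Ppia (3545 TPM), ferritin light chain Ftl1 (3228 TPM), the ADP/ATP carrier Slc25a5 (3182 TPM), the ubiquitin gene Ubb (3149 TPM), Plac8 (3097 TPM) and Ly6e (2856 TPM). As a ratio of highest to lowest, Elane had the widest range of the 15, from 9.34 to 20484 TPM, and Ptma the narrowest, from 868 to 8001 TPM.

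Few genes were on in every cell. Of the 43280 rows, 285 were on in all 66 libraries and held 38.2% of TPM, and 759 were on in all 49 ordinary libraries and held 57.6% of theirs. The 285 contain 32 cytosolic ribosomal protein genes and 12 mt- rows. At the other end 9014 genes were on in at most 20% of the ordinary libraries, and together they held 1.65% of TPM. Between them, 7277 genes were patchy, which here means on in 20% to 80% of the 49 libraries.

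The share of cells with a gene on followed its level. Genes with a mean of 10 to 30 TPM were on in a median of 42.9% of the ordinary libraries, those with 30 to 100 TPM in 71.4%, those with 100 to 300 TPM in 95.9% and those above 300 TPM in 100%. Of the 426 genes with a mean of 300 to 1000 TPM, 334 were on in every library and 3 were patchy. Of the 2753 genes with 30 to 100 TPM, 1859 were patchy. A patchy gene at such a level may be off in some cells or lost in capture, and these were not told apart.

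**Figure D2:**
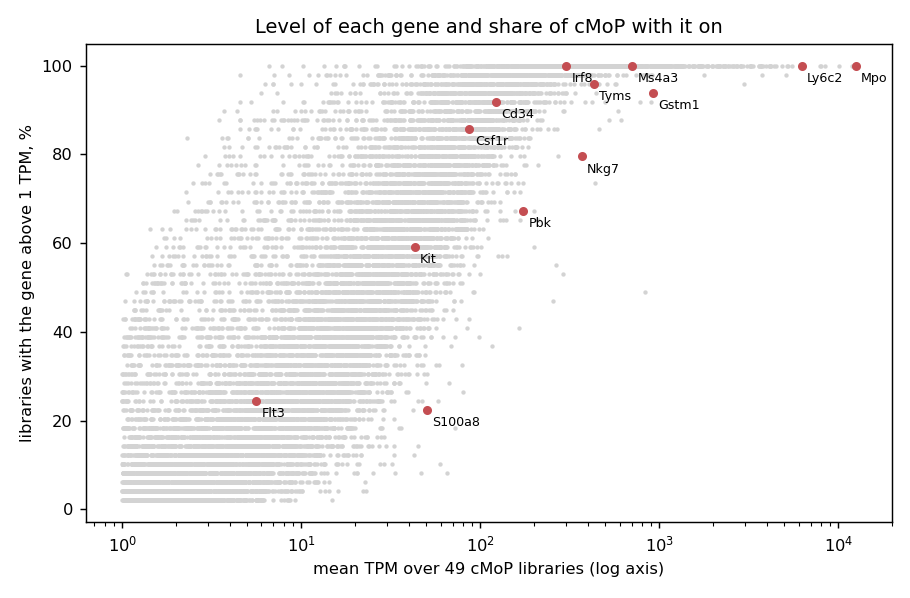
Each grey point is a gene with a mean of at least 1 TPM, with its mean TPM over the 49 ordinary cMoP libraries (log axis) against the percentage of those libraries in which it lay above 1 TPM; red points are named. Nkg7, on in 79.6%, and Pbk, on in 67.3%, lie below the median of genes in their range of mean (100% for 300 to 1000 TPM and 95.9% for 100 to 300 TPM), and Mpo, Ly6c2, Ms4a3 and Irf8 were on in all 49.

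Some patchy genes were abundant where they were on. Nkg7, a granule membrane protein best known from cytotoxic lymphocytes, was on in 39 of 49 ordinary libraries (79.6%, 65.7 to 89.8%) at a median of 247 TPM in those, and reached 2803 TPM. The mitotic kinase gene Pbk was on in 33 of 49 at a median of 232 TPM. The replication-dependent histone gene Hist1h2ap was on in 39 at 181 TPM, although the oligo(dT) priming used here captures such histone RNA poorly and its gene family shares sequence. Dhx58, a helicase of RNA sensing, was on in 11 of 49 (22.4%, 11.8 to 36.6%) at a median of 161 TPM, and Il10rb, a receptor chain of the IL-10 family, in 28 at 160 TPM. The remaining 10 of the 15 patchy genes with the highest median among libraries on were Cyb5a, Tagap1, Rpain, Plp2, Capns1, Rab18, Ciapin1, Ncoa4, Hsdl1 and Slc20a1, with medians of 161 to 217 TPM.

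Gene groups differed in how evenly cells carried them. Of 88 cytosolic ribosomal protein genes in the table, 76 were on in all 49 ordinary libraries, and their median SD of log2(TPM + 1) was 0.43. Of 83 nuclear respiratory chain genes, 52 were on in all 49. Of 9 primary granule genes, 6 were on in all 49 and 1, the serine protease gene Prss57, was patchy. Of 33 S phase genes 7 were on in all and 9 were patchy, whereas of 41 G2 and M phase genes 1 was on in all and 28 were patchy. Of 28 monocyte effector genes, 8 were on in all, among them Lyz2, Ccr2, F13a1 and Plac8, and 11 were patchy, among them Lgals3 (33 of 49) and S100a6 (31 of 49). Over the 12610 genes on in at least 10% of these libraries, 57.7% were patchy, 6.02% were on in all and the median SD was 2.01.

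Genes of later neutrophil maturation, which encode secondary granule proteins and receptors of the mature cell, were also examined. Of 16 such genes, none was on in every ordinary library and 9 were on in under 10%, as were 70.9% of all 43280 rows. Lcn2, a secondary granule protein gene, was on in 6 of 49 libraries and reached 207 TPM. Fcnb, a ficolin gene, was on in 27 of 49 (55.1%, 40.2 to 69.3%) with a median of 1.53 TPM and a highest value of 971 TPM. Csf3r, the G-CSF receptor gene, was on in 37 of 49 and reached 731 TPM. The calgranulin gene S100a8 was on in 11 of 49 and reached 738 TPM. Lcn2 and S100a8 were thus at or near 0 in most libraries and high in a few, while Csf3r was on in most.

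Genes were ranked by their spread within bins of mean. The SD of log2(TPM + 1) over the 49 libraries was set against the median SD of genes in the same one of 20 bins. The bins held equal numbers of genes, so the top bin spanned a wide range of means. Ribosomal protein and mt- rows counted in the bin medians. Genes low in the top bin, such as Milr1 at a mean log2(TPM + 1) of 7.47, were thus compared with far more abundant ones. The part of level in their excess was not tested. Kpna2, an importin gene that peaks in mitosis, led with an SD of 2.89, which was 1.97 above its bin. Milr1, a mast cell immunoglobulin-like receptor gene, followed at 1.93 above, and Gstm1, a glutathione transferase gene, at 1.89 above. Gstm1 was listed at 0 in some libraries and had a median of 885 TPM and a highest value of 3282 TPM. Then came the microsomal glutathione transferase Mgst1 and the thymidylate synthase Tyms, both 1.57 above, the interferon-induced Ifitm3 at 1.48, the condensin subunit Ncapd2 at 1.45 and Sumo3 at 1.43. Ms4a3 was also among the 15. It was on in all 49 libraries but ran from 1.18 to 3221 TPM with a median of 632 TPM, an SD of 2.22. Drg1, Kars, Nkg7, the histone gene Hist1h4d, the heme synthesis gene Alas1 and the retinol dehydrogenase gene Dhrs3 completed the 15. Of the 15, 14 were listed at 0 in at least 1 library, and Ms4a3 was the exception.

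Of the 500 genes furthest above their bin, 4 were among the 9 measured primary granule genes, 11 among 33 S phase genes and 12 among 41 G2 and M phase genes. Over all 9427 genes ranked, 5.30% were in the 500. Ribosomal protein genes were left out of this ranking. The monocyte effector list had 5 of 26 and the myeloid transcription factors 1 of 19. As plain SDs, not set against a bin, Ly6c2 had 0.65 (1368 to 15784 TPM), Prtn3, the proteinase 3 gene, 0.65 and Irf8 0.98 (32.6 to 910 TPM). On the same scale Kit had an SD of 2.92 and Csf1r one of 2.54, both with libraries listed at 0.

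**Figure D3:**
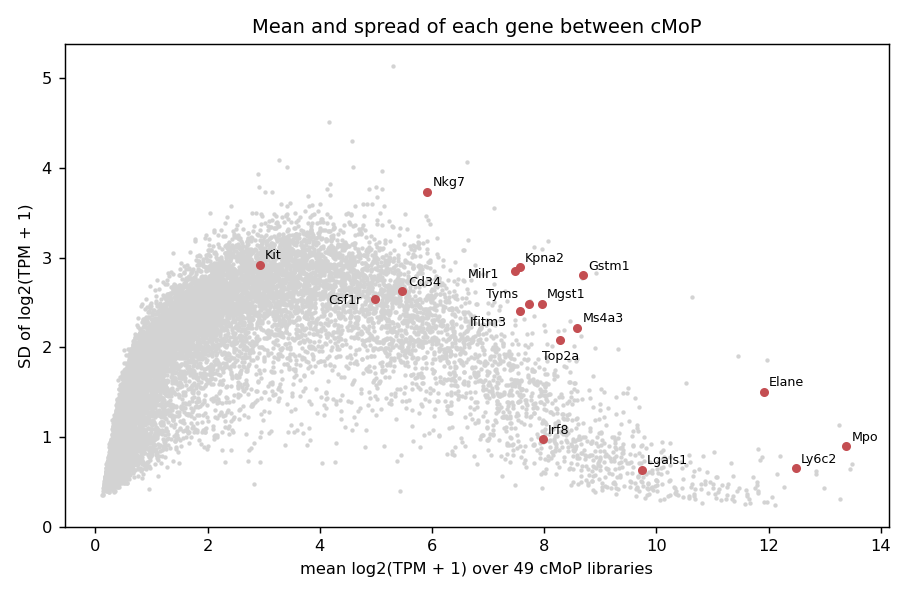
Each grey point is a gene on in at least 10% of the 49 ordinary cMoP libraries, with its mean log2(TPM + 1) against its SD over libraries; red points are named. Kpna2, Milr1 and Gstm1 lie far above the median SD of their bin of mean, and Ly6c2, Mpo and Lgals1 lie at an SD below 1.

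Which genes varied together was described by Spearman's rho across the 49 ordinary libraries, over 5736 genes on in at least 50% of them. These values carry no test. All points share 1 flow cell and lane, and the number of genes on moves with some of them. The median rho of all 16447980 pairs was 0.01, with the 1st percentile at -0.33 and the 99th at 0.35, and 0.0390% of pairs reached 0.5. Over all 66 libraries 0.0873% did.

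Mitotic genes varied together. Of 34 G2 and M phase genes, the median pairwise rho was 0.30, 94.3% of pairs were positive and 61 of 561 pairs reached 0.5. The mitochondrially encoded respiratory chain list had a median of 0.36 over 11 genes, with 100% of pairs positive and 11 of 55 at 0.5 or more, led by mt-Atp6 and mt-Atp8, which overlap, at 0.85. Top2a, the topoisomerase that untangles sister chromatids, had 38 partners at 0.5 or more, the most of the 11 genes examined this way. It ran from 2.28 to 1802 TPM with a median of 420 TPM. Its closest partners were Ndc80, a kinetochore gene, at 0.72, the linker histone gene Hist1h1b and the spindle motor gene Kif11, both at 0.70, the ubiquitin gene Ubb at 0.68 (0.48 over all 66) and Cdca2 at 0.66. Ndc80 was on in 34 of 49 libraries and reached 407 TPM, and Kif11 was on in 33 and reached 240 TPM.

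Libraries high in Top2a were low in a set of other genes. Klf13 had a rho of -0.56 with Top2a, Myc, the growth-promoting transcription factor, one of -0.54, and Hells, a chromatin remodeller of replicating cells, one of -0.52. Myc was on in 37 of 49 libraries and ran up to 723 TPM, and Hells ran from 1.90 to 1407 TPM. Over all 66 libraries these values were -0.29 for Klf13, -0.52 for Myc and -0.37 for Hells. Top2a itself had a rho of 0.35 with the number of genes on, and the mean level of the G2 and M phase list one of 0.48. With that number held fixed the list's median rho was 0.24.

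S phase genes moved together less closely. Of 30 members the median rho was 0.11, with 76.8% of 435 pairs positive and 4 pairs at 0.5 or more. The highest was Pcna, the sliding clamp of replication, with Tyms at 0.54. Mcm5, a subunit of the replicative helicase, had 3 partners at 0.5 or more, led by the nucleolar gene Nolc1 at 0.55 and the one-carbon enzyme gene Shmt1 at 0.53. The S phase and G2 and M phase scores, each the mean log2(TPM + 1) of its list, had a rho of -0.003 with each other, and -0.17 in the 41 ordinary libraries with at least 6000 genes on. The G2 and M phase score spread more widely, from 1.53 to 7.03, than the S phase score, from 3.14 to 7.17, with SDs of 1.502 and 0.92. With no filter on members, 47 of 49 libraries had over 50% of the 33 S phase genes above 10 TPM, and 25 of 49 had over 50% of the 41 G2 and M phase genes above it. Within the mitotic list the cyclin gene Ccnb2 went against the rest, with a mean rho of -0.07 and one of -0.42 with Cdk1, the kinase it binds.

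The promoters of the mitotic partners are shown because the genes moved together. The sequences are those of RefSeq for GRCm38.p6, from 250 bases before to 50 after the annotated start, written 5′ to 3′ on the gene's strand. Capitals mark matches, on either strand, to TTTGAA (the letters of the cell cycle homology region) and to CCAAT. The matches did not overlap each other. Top2a lies at chr11:99024140-99024439 on the minus strand, Ndc80 at chr17:71526808-71527107 on the minus strand, Kif11 at chr19:37376132-37376431 on the plus strand and Nusap1, a spindle protein gene whose rho of 0.75 with the motor gene Kif23 was the highest within the list, at chr2:119618048-119618347 on the plus strand.
Top2a: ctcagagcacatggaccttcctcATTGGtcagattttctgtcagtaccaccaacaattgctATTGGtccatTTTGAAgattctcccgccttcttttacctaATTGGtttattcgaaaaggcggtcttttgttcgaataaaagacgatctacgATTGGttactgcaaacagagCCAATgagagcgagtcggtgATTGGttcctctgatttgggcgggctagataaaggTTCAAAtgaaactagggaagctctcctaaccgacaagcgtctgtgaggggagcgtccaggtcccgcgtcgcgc
Ndc80: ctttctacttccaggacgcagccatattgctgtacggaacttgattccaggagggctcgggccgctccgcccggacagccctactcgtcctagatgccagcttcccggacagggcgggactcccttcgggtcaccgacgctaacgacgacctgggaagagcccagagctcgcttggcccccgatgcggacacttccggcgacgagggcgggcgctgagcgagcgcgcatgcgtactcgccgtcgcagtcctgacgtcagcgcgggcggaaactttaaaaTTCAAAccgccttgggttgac
Kif11: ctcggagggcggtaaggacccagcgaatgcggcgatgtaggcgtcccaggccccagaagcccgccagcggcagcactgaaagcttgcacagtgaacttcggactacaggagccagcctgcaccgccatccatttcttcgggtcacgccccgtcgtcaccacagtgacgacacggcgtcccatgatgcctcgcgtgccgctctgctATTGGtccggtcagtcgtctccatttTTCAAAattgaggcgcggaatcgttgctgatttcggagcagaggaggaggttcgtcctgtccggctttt
Nusap1: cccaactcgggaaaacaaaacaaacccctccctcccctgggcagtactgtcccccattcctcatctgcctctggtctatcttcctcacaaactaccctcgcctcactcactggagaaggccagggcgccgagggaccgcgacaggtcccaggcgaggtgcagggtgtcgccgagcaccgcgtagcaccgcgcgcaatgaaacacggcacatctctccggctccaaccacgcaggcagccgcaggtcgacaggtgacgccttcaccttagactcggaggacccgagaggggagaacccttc

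TTTGAA was found 2 times in the Top2a window, 1 time in each of those of Ndc80 and Kif11 and not in that of Nusap1. CCAAT was found 6 times for Top2a, 1 time for Kif11 and not for Ndc80 or Nusap1. Over the list, 26 of 35 G2 and M phase genes with a promoter in the table held TTTGAA, against 18.1% of all 27025 promoters of the same length, and 2 of 23 S phase genes did. CCAAT was held by 26 of the 35, by 17 of the 23 and by 37.9% of all. TTTCGCGC, the letters of an E2F site, was held by 4 of 23 S phase genes, 1 of 35 G2 and M phase genes and 0.318% of all. The motifs were chosen after the gene groups had been seen, and a match is a description of letters, not of binding.

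A further set of genes varied with Elane. Elane ran from 101 to 20484 TPM over the ordinary libraries with a median of 4915 TPM. Its closest partners were Nkg7 and Gstm1, both at a rho of 0.65, Ms4a3 at 0.63 and Srgn, the serglycin gene whose proteoglycan packs granule contents, at 0.58. Gusb followed at 0.54, Fcnb at 0.53, and B4galt6 (median 1.05 TPM) and Mpo both at 0.52. Over all 66 libraries these were 0.66 for Nkg7, 0.71 for Gstm1, 0.65 for Ms4a3, 0.62 for Srgn and 0.51 for Gusb. Fcnb had 0.43 there, B4galt6 0.38 and Mpo 0.64. Mpo, from 917 to 32081 TPM with a median of 11464 TPM, had its highest values with Trnt1, a tRNA-processing enzyme gene, and with Srgn, both 0.60. Ms4a3 had 5 partners at 0.5 or more, with Srgn at 0.57, Nkg7 at 0.56 and the protease inhibitor gene Serpinb1a at 0.52 after Elane.

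Not all granule genes took part equally. The 9 primary granule genes had a median pairwise rho of 0.19 with 94.4% of 36 pairs positive, and 0.35 over all 66 libraries. Elane (mean rho 0.34 with the others), Srgn (0.32) and Mpo (0.31) led. Prtn3 had 0.11, Cst7, a cystatin gene, 0.08 and Ctsc, a protease that activates the granule serine proteases, 0.08. Prtn3 lies next to Elane on chromosome 10, from 79874476 to 79883174 against 79886247 to 79888215 (GRCm38), and ran only from 492 to 3743 TPM.

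Genes that were low where Elane was high were Lgals1, the galectin-1 gene, at -0.60, Ifitm3 at -0.56 and the peroxiredoxin gene Prdx4 at -0.48. S100a6, a calcium-binding protein gene that is high in monocytes, had -0.47. Lgals1 ran from 107 to 1720 TPM, Ifitm3 from 0 to 1375 TPM and S100a6 from 0 to 199 TPM. Over all 66 libraries the values were -0.40 for Lgals1, -0.12 for Ifitm3, -0.22 for Prdx4 and -0.30 for S100a6. Within the 11 libraries of high mitochondrial share they were 0.39, 0.83, 0.64 and -0.19, so only S100a6 kept its sign there. Ms4a3 was likewise opposed to Emp3 at -0.53 and to Cebpb, a C/EBP family gene, at -0.51, although Cebpb had a median of 3.89 TPM. Over all 66 these were -0.29 and -0.34, and within the same 11 libraries 0.10 and -0.05. Mpo was opposed to Actb at -0.63, which was -0.17 over all 66 and 0.31 within the 11.

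As whole lists, primary granule and monocyte effector scores had a rho of -0.29 over the 49 libraries, -0.37 with the number of genes on held fixed and 0.07 over all 66. The primary granule score went with the secondary granule and neutrophil maturation score at 0.59. Monocyte effector genes themselves had a median pairwise rho of 0.06 over 17 members, with S100a6 and Lgals3 the closest pair at 0.47 and Plac8 and Lgals3 the most opposed at -0.45. Other scores that went together were S phase with serine and one-carbon genes at 0.65, serine and one-carbon genes with heat shock genes at 0.66, and monocyte effector with type I interferon response genes at 0.49.

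The promoters of the Elane set are shown in the same way, with capitals for GAGGAA (the core letters bound by PU.1, the factor Spi1 of myeloid cells) and TTNNGNAA (letters of a C/EBP site, N being any base), on either strand. No match overlapped another, and in Ms4a3 the GAGGAA match and a TTNNGNAA match adjoin. Elane lies at chr10:79886062-79886361 on the plus strand, Ms4a3 at chr19:11640802-11641101 on the minus strand, Mpo at chr11:87793534-87793833 on the plus strand and Nkg7 at chr7:43436888-43437187 on the plus strand.
Elane: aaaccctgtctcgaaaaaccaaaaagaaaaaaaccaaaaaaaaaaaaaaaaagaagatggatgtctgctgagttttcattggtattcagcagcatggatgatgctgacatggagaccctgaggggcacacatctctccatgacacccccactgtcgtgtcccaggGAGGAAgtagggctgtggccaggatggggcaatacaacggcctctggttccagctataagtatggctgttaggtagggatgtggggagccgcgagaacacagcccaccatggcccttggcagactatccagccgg
Ms4a3: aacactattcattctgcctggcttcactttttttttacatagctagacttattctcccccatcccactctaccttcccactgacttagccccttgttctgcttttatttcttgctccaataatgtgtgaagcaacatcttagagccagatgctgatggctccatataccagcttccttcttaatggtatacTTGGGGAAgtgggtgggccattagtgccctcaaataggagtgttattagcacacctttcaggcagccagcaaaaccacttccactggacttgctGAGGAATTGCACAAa
Mpo: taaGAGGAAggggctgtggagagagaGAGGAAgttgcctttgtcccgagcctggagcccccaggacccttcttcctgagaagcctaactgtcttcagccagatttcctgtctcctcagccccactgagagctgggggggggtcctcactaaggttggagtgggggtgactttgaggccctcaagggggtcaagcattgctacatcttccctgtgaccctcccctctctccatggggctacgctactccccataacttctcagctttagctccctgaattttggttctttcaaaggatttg
Nkg7: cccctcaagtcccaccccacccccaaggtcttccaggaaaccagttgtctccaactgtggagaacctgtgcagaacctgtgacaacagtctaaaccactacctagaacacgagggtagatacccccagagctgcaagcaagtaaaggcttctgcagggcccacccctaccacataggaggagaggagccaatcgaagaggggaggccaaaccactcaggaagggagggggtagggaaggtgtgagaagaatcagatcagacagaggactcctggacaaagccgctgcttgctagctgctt

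GAGGAA was found 1 time for Elane and Ms4a3, 2 times for Mpo and not for Nkg7, and TTNNGNAA 2 times for Ms4a3 and in none of the other windows shown. Among primary granule genes, 5 of 7 held GAGGAA and 1 of 7 TTNNGNAA, against 28.2% and 40.8% of all promoters. Among the 10 genes of the Elane group described next, 4 held GAGGAA and 4 TTNNGNAA. The start of Mpo in RefSeq lies 203 bases from that in GENCODE, so its window is less certain.

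Clustering the 500 genes furthest above their bin gave 2 groups. The first held 19 genes, led by Top2a, Hist1h4d, Pbk, Fbxo5 (an inhibitor of the anaphase-promoting complex) and Hist1h2ap, and included Kpna2 and the mitotic genes Birc5, Prc1, Bub1b, Aurka, Aurkb and Ccnb1. The second held 10 genes, Elane, Nkg7, S100a8, Dstn, Gstm1, Fcnb, Ms4a3, Kctd20, the metallothionein gene Mt1 and the annexin gene Anxa1. The mean levels of these groups had a rho of 0.10 with each other. The rest of the 500 genes fell into no group of at least 8.

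**Figure D4:**
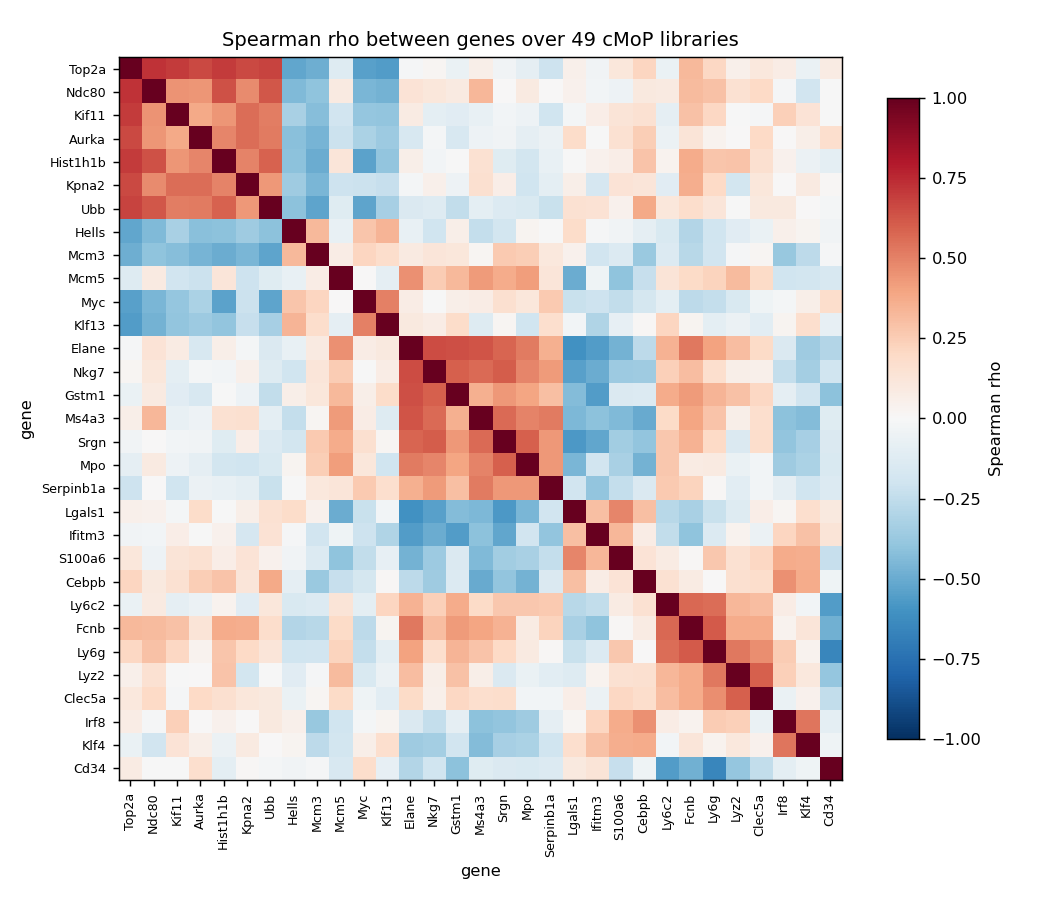
Each square is the Spearman rho of 2 genes over the 49 ordinary cMoP libraries, from blue (-1) to red (1), for genes chosen after their values were seen. Top2a to Ubb form a block, and so do Elane to Serpinb1a, which is blue against Lgals1 and Ifitm3; Elane and Lgals1 stand at -0.60.

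Ly6c2 and Cd34 were opposed to each other, and not apart from the Elane set. Ly6c2 had a rho of 0.35 with Elane, 0.37 with Gstm1 and 0.19 with Ms4a3. For Cd34 these were -0.29, -0.41 and -0.125. Cd34, a surface sialomucin of stem and early progenitor cells, was on in 45 of 49 libraries and ran from 0 to 538 TPM with a median of 74.9 TPM. It had a rho of -0.65 with Ly6g and of -0.56 with Ly6c2, and no partner at 0.5 or more. Ly6c2 went with Napsa, an aspartic protease gene, at 0.62, Fcnb at 0.57 and Ly6g at 0.56. Ly6g is a paralogue of Ly6c2 with a median of 18.9 TPM against 6069 TPM, so its values may hold reads of Ly6c2. Over all 66 libraries Cd34 and Ly6c2 had a rho of -0.32. Lyz2, the lysozyme M gene, which ran from 3.26 to 5659 TPM, went with the myeloid receptor gene Clec5a at 0.60.

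Irf8 had its highest rho with Chchd2 and Dpysl2, both at 0.56, and Tmsb10 at 0.54. Its fellow monocyte factor Klf4 came next at 0.53 (0.38 over all 66). The lowest for Irf8 was Rin3 at -0.51, and Irf8 had -0.41 with Ms4a3 and -0.35 with Mpo. Klf4 was on in 37 of 49 libraries and reached 167 TPM. Kit and Csf1r had no partner at 0.5 or more; with each other they had a rho of 0.12. The closest to Kit was Impad1 at 0.48 and to Csf1r Tob2 at 0.46, while Kit and Cd34 had 0.36.

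**Figure D5:**
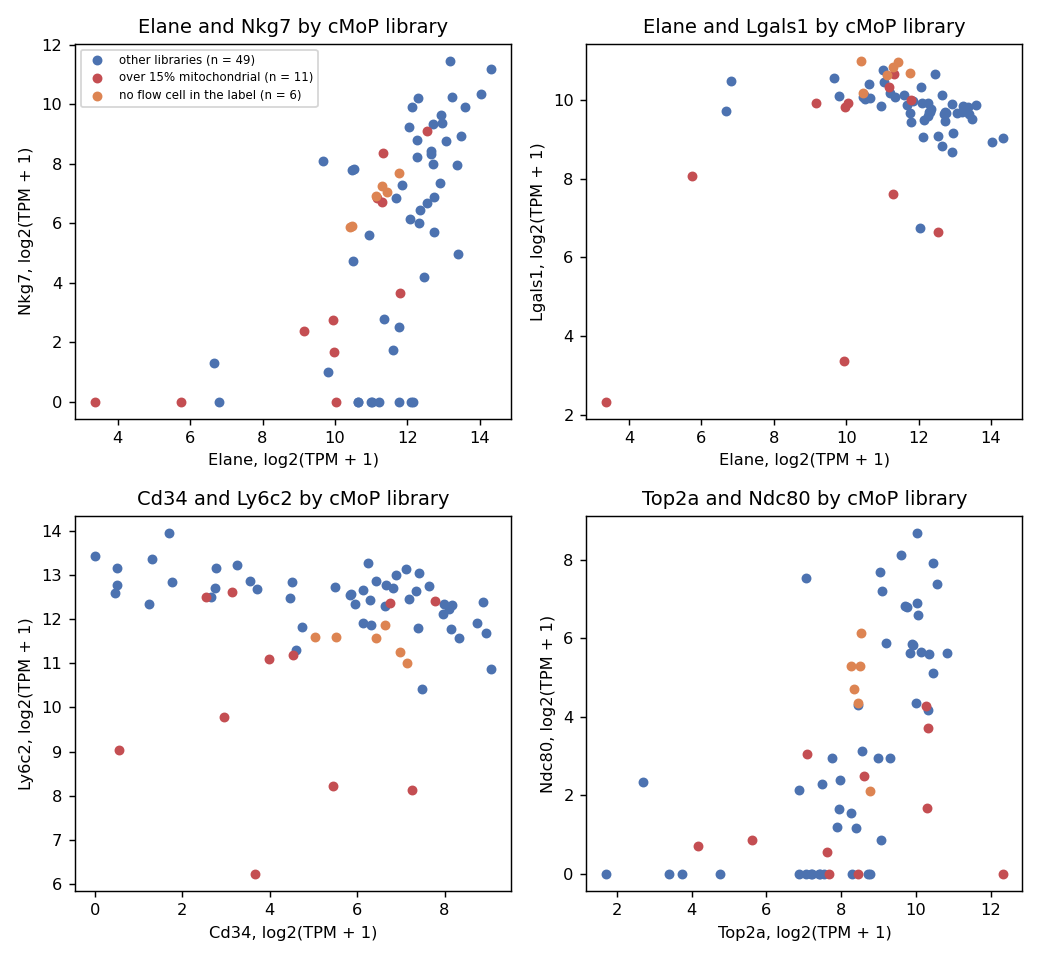
Each point is 1 cMoP library and the axes give log2(TPM + 1) of the 2 genes named; colours mark the 49 ordinary libraries, the 11 of high mitochondrial share and the 6 without a flow cell. Over the ordinary libraries rho was 0.65 for Elane and Nkg7, -0.60 for Elane and Lgals1, -0.56 for Cd34 and Ly6c2 and 0.72 for Top2a and Ndc80, and the library lowest in Elane, of high mitochondrial share, was also the lowest in Lgals1.

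Not every close pair is 2 independent measurements. Of the 15 pairs of highest rho, 2 were overlapping genes, Lpar6 within Rb1 at 0.84 and Myef2 with Slc24a5 at 0.80, and Srp54a and Srp54b are near-identical copies. 2 pairs were histone genes and 4 were mitotic genes. Another 4 joined Calb1, Zfp260, Bhlhe41 and Prtg, which lie on different chromosomes and had rho of 0.75 to 0.80. These 4 genes were on in all 66 cMoP and in all 57 and 38 monocytes. Calb1, a calbindin gene of neurons and kidney, ran from 179 to 2562 TPM in cMoP and averaged 485 TPM in bone marrow monocytes. All 15 pairs kept a positive rho over the 11 libraries of high mitochondrial share, at a median of 0.34 against 0.75. Of the 55 highest partners of the 11 genes examined 38 kept their sign there, and of the 33 lowest 16 did.

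The 11 libraries of high mitochondrial share were described as differences in mean log2(TPM + 1) from the 49 ordinary libraries, with 4-fold or more counted. Of 13743 genes, 2288 were that much lower (16.6%) and 186 higher (1.35%), and the median difference was -0.39. Since mt- rows chose these libraries, their higher level is not a finding. Of 78 nuclear respiratory chain genes 69 were 4-fold lower, at a median of -3.53. Of 84 cytosolic ribosomal protein genes 63 were lower, of 18 glycolysis genes 11, of 33 S phase genes 18 and of 9 primary granule genes 5. Myeloid transcription factors had 0 of 19 lower and the G2 and M phase list 8 of 41, with 2 higher. In the ordinary libraries their scores had medians of 3.52 and 3.64, against 9.37 for ribosomal protein genes. Members near 0 could not fall 4-fold, so these counts are not like for like. With TPM rescaled to leave out mt- rows, 2112 genes were 4-fold lower and 306 higher. The part of RNA quality in these differences was not tested.

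Among single genes Gstp1, a glutathione transferase gene, was lower by 6.73 on the log2 scale, on in 2 of 11 libraries against 48 of 49. The galectin gene Lgals9 was lower by 6.09, the proton pump subunit gene Atp6v1f was lower by 6.07, the chaperonin gene Cct7 was lower by 6.06 and the malate dehydrogenase gene Mdh2 was lower by 6.02. Rai1 was higher by 3.43 and Pax6, an eye and neural transcription factor gene, by 3.20. Of 6 progenitor markers 2, Elane and Ly6c2, were 4-fold lower, and the median difference of the 6 was -1.75. Mpo was on in 11 of 11 with a median of 2944 TPM, against 11464 TPM in the ordinary libraries. Elane was on in 11 of 11 with a median of 1051 TPM, against 4915 TPM, and fell to 9.34 TPM in cMoP 22. Kit was on in 4 of 11.

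The 6 libraries without a flow cell held the progenitor's genes and, in addition, antigen presentation genes. Of 15552 genes, 1175 were 4-fold higher than in the ordinary libraries (7.56%) and 67 lower (0.431%), with a median difference of 0.51, and these libraries also had more genes on. None of 6 progenitor markers and none of 9 primary granule genes was 4-fold apart, which is near the shares over all genes. Mpo ran from 4419 to 11818 TPM and Elane from 1366 to 3486 TPM in the 6. On the MHC class II list, 6 of 8 were that much higher. The members that were not were H2-DMa, at 393 to 802 TPM in the 6, and Ciita. Ciita stood at 2.32 TPM in cMoP 34 and at 0 TPM in the rest of the 6. H2-Aa, an MHC class II chain, ran from 3804 to 11089 TPM, against at most 75.1 TPM in any ordinary library. Cd74, the invariant chain, ran from 3424 to 7890 TPM against at most 29.8 TPM, and H2-Eb1 from 808 to 2533 TPM against at most 7.13 TPM. The 6 libraries did not overlap the 49 for H2-Aa, Cd74 and H2-Eb1, which were named for their large differences. How many of the 15552 genes did not overlap was not counted.

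Other genes followed. Of 20 immediate early genes 14 were higher, led by Klf6, and of 28 monocyte effector genes 7, among them S100a6, S100a4 and Lgals3. Id2, a helix-loop-helix inhibitor, ran from 315 to 708 TPM, Cd83, an activation antigen of antigen-presenting cells, from 88.9 to 624 TPM, the decoy receptor gene Il1r2 from 66.4 to 814 TPM and Lmna, the lamin A gene, from 66.5 to 427 TPM. Markers of mature cells were uneven. Of 9 conventional dendritic cell genes 2 were 4-fold higher, Mgl2 and Clec9a, while Itgax, which encodes CD11c, was on in 1 of 6 at 1.15 TPM, and the list summed to 49.3 to 521 TPM. The macrophage list summed to 0 to 158 TPM, of which Timd4 made the highest value, and the erythroid list to 16.9 to 426 TPM. Of 5 erythroid genes measured, 3 were 4-fold higher, the globin genes Hba-a2, Hbb-bt and Hbb-bs, and the median difference of the 5 was 2.65. The globin genes are near-identical copies in part, so their reads may be shared. The B cell list had none of 4 genes 4-fold higher, which is near the 7.56% over all genes. The part of other cells, of more genes on or of a separate preparation in these differences was not tested. All 6 differ from the others in the form of the label, so preparation and library set cannot be told apart.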

How the data were processed

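Gene-level TPM values, deposited by the authors in 1 table of 43280 gene symbols, were made with RSEM 1.2.19 on GRCm38, per the submitters' processing notes. Neither aligner nor annotation is given in the sources used here. Columns were matched to libraries by title (0 unmatched) and grouped by the label's cell type. Column sums ran from 997939 to 999955 TPM, 0 pairs of cMoP columns were identical, and depth is unknown.

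Computed here, with Python 3.11.15, numpy 2.4.6, pandas 2.3.3, scipy 1.17.1 and matplotlib 3.10.9: genes above 1 TPM, log2(TPM + 1) with its SD, exact Clopper-Pearson intervals (95%), Spearman's rho over 49 libraries, list scores from members on in at least 10% of these, and average-linkage clustering of 500 genes on 1 - rho. Functions were tested on simulated data. Because the cMoP are 1 sample, no comparison was tested.

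The members and the 31 gene lists were chosen with earlier results of these data known. Genes were named by rule: the 6 markers, the 15 highest by mean, by level among patchy genes and by excess SD, the 15 highest pairs, partners of 11 genes, leaders of groups, list members of highest mean or SD, and the largest differences. Mitochondrial, ribosomal, predicted and small RNA rows were left out there. Genes of marker lists in the separate libraries, the heatmap, the promoters and the pair Kit and Cd34 were chosen after their values were seen.

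The clustering distance of 0.70 and minimum of 8 genes were chosen after 5 distances had been tried. 5 motifs were searched over 6 gene sets and all promoters. Coordinates are from GENCODE vM21 and promoters from RefSeq GRCm38.p6. Alternatives tried were pseudocounts of 0.1 and 10, other levels for a gene being on, no filter, Pearson's r, the number of genes held fixed, TPM rescaled without mt- rows and other sets of libraries.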

Additional observations from a re-analysis of the deposited data

Results flagged for a closer look

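In the 6 libraries without a flow cell, 35 measures were examined for a library far from the other 5, by Dixon's criterion (0.625 for 6 values), and 4 passed. Chance alone flags about 1 in 20. The cause of each was not tested.

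Mpo was lowest in cMoP 39, at 12.11 on the log2(TPM + 1) scale against 13.03 to 13.53 in the other 5. The conventional dendritic cell score was highest in cMoP 36, at 4.429 against 1.936 to 2.863. cMoP 37 had 9971 genes on against 8720 to 9069, and cMoP 34 had 10.91% of TPM in ribosomal protein rows against 8.989% to 9.478%.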

How the results depend on the processing

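No paired analysis was possible because replicate numbers only name cells in accession order and no result comes from a test. A rho counted as moved beyond 1 divided by the square root of n - 3, which is 0.1474, a list median beyond the SD of its members' mean rho, and a count beyond 1.5 times. Of the 40 gene differences between library sets chosen by the naming rule, 1 changed direction: Lsm7 in the libraries without a flow cell went from -2.41 to 0.196 on the log2 scale when taken as a ratio of means.

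Genes on in all libraries numbered 285, but 124 above 10 TPM, 759 in the ordinary libraries and 749 without those of high mitochondrial share. Pairs at a rho of 0.5 or more were 0.0390% of all, 0.0873% over all 66 libraries, 0.0592% with Pearson's r and 0.0769% in the 41 libraries with at least 6000 genes. Over all 66 libraries the list medians were 0.346 for primary granule, 0.138 for monocyte effector and 0.188 for S phase genes, and the rho of the granule and monocyte scores changed sign, from -0.294 to 0.0672. The S phase and G2 and M phase scores, near 0 at -0.00265, had 0.0696 over all 66, 0.0050 with TPM rescaled, -0.159 with Pearson's r and -0.166 in the 41 libraries. Of 103 named pairs 31 moved over all 66 libraries, 10 with Pearson's r and 0 with the number of genes held fixed. None of the 103 changed sign. The median rho of the secondary granule list, 0.0415, became -0.00497 with the number of genes held fixed.

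Counts of genes 4-fold apart moved with the pseudocount and, for some, with the ratio of means. For the libraries of high mitochondrial share, higher genes numbered 657 at a pseudocount of 0.1, 35 at 10, 306 with TPM rescaled and 946 as a ratio of means, and lower genes 3701 and 862 at pseudocounts of 0.1 and 10. For the libraries without a flow cell, higher genes numbered 3975 and 156 at these pseudocounts, and lower genes 307, 13 and, as a ratio of means, 463.

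At a clustering distance of 0.65 there were also 2 groups, with 12 genes in the one that holds Pbk and the same number of 10 in the Elane group, at 0.60 there was 1, at 0.55 none and at 0.75 there were 3 of at least 8 genes. The alternatives with at least 6000 genes or without 1 of the library sets were chosen after seeing the data.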
